A study of Mus musculus with 6 samples.

Results

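Cadherins and protocadherins are cell adhesion proteins, and 93 of the 18732 genes in the authors' comparison of morphine with saline belong to them. Members were chosen by symbol, from the Ensembl identifier: all protocadherins, the numbered cadherins, Celsr1 to Celsr3, Fat1 to Fat4, and Dchs1 and Dchs2. Of 102 annotated genes that the rule takes, the 9 others were not analysed here. The clustered protocadherins, Pcdha, Pcdhb and Pcdhg, gave 57 members and the rest of the family 36. RNA came from mouse striatum, where the basal ganglia receive most of their input, by translating ribosome affinity purification, in which ribosomes that carry a GFP-tagged L10a protein are pulled down with antibodies against GFP.

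The morphine group had 3 libraries from mice given escalating subcutaneous morphine at 20, 40, 60 and 100 mg/kg, with 2 injections a day for 5 days. The saline group had 3 libraries from mice given saline injections. Both groups carried an Oprm1-Cre allele and RosaLSL-GFP-L10a, whose tag is switched on by Cre, and every library holds tissue of 2 pooled brains, collected 24 h after dosing ended. The sample labels write the genotype as Oprm1Cre/+ and the series text as Oprm1Cre/Cre, with ages not given in the sources used here. Oprm1 encodes the mu opioid receptor, so a cell is tagged if it uses Oprm1 or did so earlier, and RNA of untagged cells can be carried along. All 12 markers of striatal projection neurons had a row, with mean levels from 2813 to 136520 normalised counts in the authors' deposited table.

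The values below are the authors' log2 fold changes with their standard errors (SE) and DESeq2 adjusted p values, where "rose" means an adjusted p below 0.05 and a value with no other unit is a log2 fold change. No per-library values were analysed here, so no group mean or spread between libraries can be shown, and the depth of each library is unknown. The table names neither the numerator nor the libraries fitted, and its title holds the unexplained term RM-out, so it is unknown whether all 3 libraries of each group entered the fit. Here a positive value is taken as higher after morphine, since the authors' sheet for increases holds the positive values, and all directions below depend on that reading.

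Most cadherins are single-pass membrane proteins whose extracellular repeats bind calcium and the same or related cadherins on the next cell. Classical cadherins hold to the actin cytoskeleton through catenins. Clustered protocadherins are encoded in tandem arrays in which each neuron picks a few variable exons, and the resulting mixture gives its processes an identity used in self-avoidance and synapse formation. Pcdha and Pcdhg transcripts join a variable exon to constant exons shared by the whole array, while Pcdhb genes have a single coding exon. Celsr, Fat and Dachsous proteins are very large cadherins with roles in planar polarity and axon tracts.

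Of the 92 members with an adjusted p, 51 rose after morphine and 0 fell in the authors' deposited table (DESeq2), and 0 were lower at an unadjusted p below 0.05. The same table called 11.8% of all 17279 tested genes higher and 2.01% lower. At an adjusted p below 0.01, 40 members rose and 0 fell, against 9.14% and 0.995% of all tested genes. At a threshold of 0.1, 63 rose and 0 fell, against 13.5% and 3.09%. Adjustment over all 18732 genes left 51 higher and 0 lower (10.7% and 1.77% of all), and a minimum absolute log2 fold change of 0.5 left 50 and 0 (10.7% and 1.42%). The median log2 fold change of the members was 0.77, against -0.01 over all tested genes, and 91 of the 92 values lay above 0. The exception was Dchs2. The member without an adjusted p, Pcdhb1, had a mean level of 10.2 normalised counts and a log2 fold change of -0.90 (SE 1.06) in the authors' deposited table. In pooled tissue, more cells of a type and more RNA per cell cannot be told apart.

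Genes of secreted and membrane proteins rose widely in this comparison, and all 93 members encode a protein with a predicted signal or membrane segment. Among the 3612 tested coding genes with such a segment, 46.3% rose and the median log2 fold change was 0.58, against 2.82% and -0.06 among 9868 coding genes without. Of the genes with a segment 0.0554% fell, and of those without 1.41%, in the authors' deposited table. The members' share of 55.4% stood nearer to that of their kind of protein than to that of all genes. When each gene was measured from the median of its kind, 6 of the 51 calls remained: Celsr1, Celsr2, Celsr3, Pcdhga6, Pcdhga7 and Pcdhgc3. By that measure 2 members were lower, Dchs2 at -0.60 (adjusted p = 0.0107) and Cdh7 at -0.45 (adjusted p = 0.0430), while 2.86% of all tested genes were called higher and 3.26% lower.

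**Figure D1:**
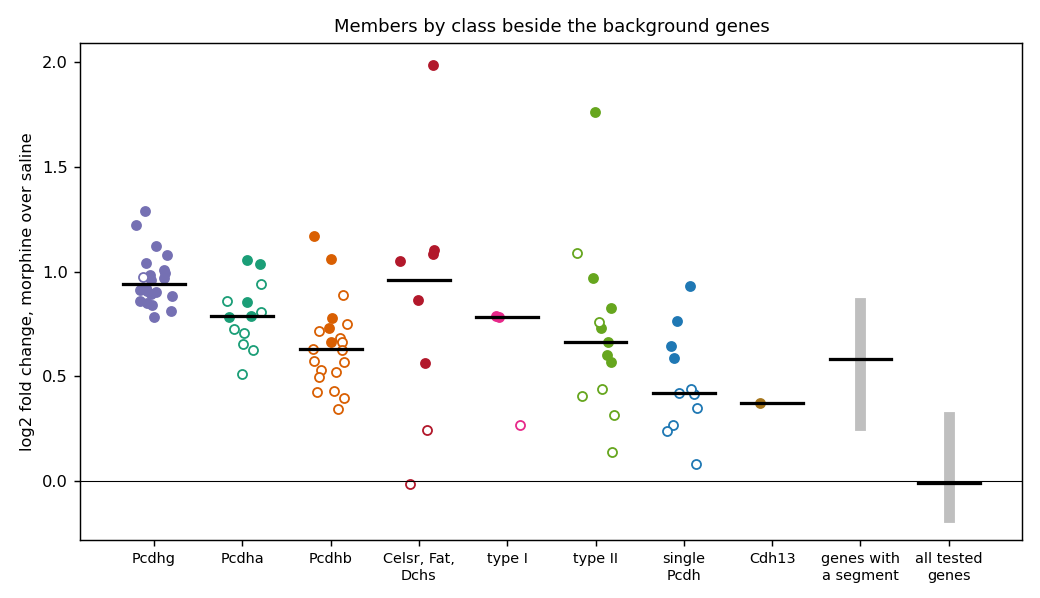
Log2 fold change of morphine over saline (vertical axis) for each of the 92 members with an adjusted p, by class; black bars are medians, filled points have an adjusted p below 0.05, and the grey bars span the middle 50% of 3612 genes with a predicted segment and of all 17279 tested genes. Pcdhg has the most compact distribution, between 0.78 and 1.29, and single protocadherins sit lower, with a median of 0.42.

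Clustered and other members were called at the same rate but differed in size and precision. Of 56 tested clustered genes 31 rose (55.4%), and of 36 others 20 rose (55.6%). However, 37 of the 57 clustered members share exon bases with another gene of the same strand, so their values may not be separate measurements. Of 19 tested clustered genes with no such sharing 5 rose, and of 24 others with no sharing on either strand 13 rose. The median log2 fold change was 0.83 for clustered members and 0.59 for the others, a difference of 0.23 that has no test here, since genes of the same libraries are not replicates. Clustered values varied less among themselves, with an SD over genes of 0.22 against 0.42. Their SEs were larger, with a median of 0.24 against 0.18, and their median mean level was 306 normalised counts against 1272. Per kilobase of exon, the medians were 71.0 normalised counts for clustered and 117 for other members.

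The 3 arrays lie side by side on chromosome 18 (GRCm38), Pcdha from 36930184 to 37187661, Pcdhb from 37264938 to 37524479 and Pcdhg from 37661793 to 37841873. Their shares of called genes differed, a difference that was not tested, while 46.3% of coding genes with a predicted segment rose. Of 22 Pcdhg genes 21 rose, with a median log2 fold change of 0.94. Of 13 tested Pcdha genes 5 rose, with a median of 0.79, and of 21 tested Pcdhb genes 5 rose, with a median of 0.63.

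Within Pcdhg, the highest value in the authors' deposited table was that of Pcdhgc3 (ENSMUSG00000102918), a C-type gene that stands apart from the alternative A and B isoforms, at 1.29 (SE 0.19, 2.44-fold, adjusted p = 2.93e-09). The lowest was that of Pcdhga1 at 0.78 (SE 0.24, adjusted p = 0.0126). The intervals of these extremes, 0.91 to 1.67 for Pcdhgc3 and 0.30 to 1.26 for Pcdhga1 (95%, from the authors' SE), overlap. Pcdhgc5 had the highest mean level of the array, 5699 normalised counts or 747 per kilobase, and rose by 0.92 (SE 0.17, adjusted p = 2.72e-06) per the authors' deposited table. The third C-type gene of the array, Pcdhgc4, rose by 0.97 (SE 0.26). All 12 Pcdhga genes rose, with a median of 0.90, and 6 of 7 Pcdhgb genes did, with a median of 0.98.

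Among A isoforms, the authors' deposited table gave Pcdhga7 1.22 (SE 0.19), Pcdhga6 1.12 (SE 0.17), Pcdhga4 1.08 (SE 0.24), Pcdhga8 1.01 (SE 0.18) and Pcdhga5 0.96 (SE 0.18). Lower in the array's range were Pcdhga2 at 0.91, Pcdhga9 at 0.90, Pcdhga3 at 0.89, Pcdhga10 at 0.88, Pcdhga11 at 0.86 and Pcdhga12 at 0.81, with SEs from 0.19 to 0.23 in the authors' deposited table. Among B isoforms, the table gave Pcdhgb4 1.04 (SE 0.23), Pcdhgb2 0.99 (SE 0.19), Pcdhgb7 0.99 (SE 0.25), Pcdhgb6 0.91 (SE 0.22), Pcdhgb1 0.85 (SE 0.27) and Pcdhgb5 0.84 (SE 0.21). The exception was Pcdhgb8, annotated as a polymorphic pseudogene. It had a like value of 0.98 but an SE of 0.59 and a mean level of 34.2 normalised counts (adjusted p = 0.348).

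In Pcdha, the C-type gene Pcdhac2 (ENSMUSG00000102697) had the highest mean level, 1947 normalised counts or 331 per kilobase, and rose by 0.85 in the authors' deposited table (SE 0.16, 1.81-fold, adjusted p = 3.87e-06). Pcdha9 had the highest log2 fold change, 1.06 (SE 0.30, adjusted p = 0.00405). Pcdha12 rose by 0.79 (SE 0.21), Pcdha5 by 0.78 (SE 0.25), and ENSMUSG00000102206, one of 2 identifiers annotated as Pcdha11, by 1.04 (SE 0.34). The other identifier, ENSMUSG00000007440, was at 0.94 (SE 0.38, adjusted p = 0.0875) per the authors' deposited table. The lowest value was 0.51 for Pcdha1, with an SE of 0.47 (adjusted p = 0.621). All 8 Pcdha genes that were not called lay above 0.

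In Pcdhb, Pcdhb9 (ENSMUSG00000051242) stood above the rest at 1.17 (SE 0.22, 2.25-fold, adjusted p = 6.17e-06) per the authors' deposited table. The other 4 called genes in that table were Pcdhb2 at 1.06 (SE 0.38, adjusted p = 0.0426), Pcdhb12 at 0.78 (SE 0.27), Pcdhb13 at 0.73 (SE 0.26) and Pcdhb20 at 0.66 (SE 0.22). Pcdhb19 was the most counted gene of the array, with a mean level of 672 normalised counts, and was at 0.57 (SE 0.22, adjusted p = 0.0752). Pcdhb4 was lowest, at 0.34 (SE 0.37, adjusted p = 0.699). All 16 Pcdhb genes that were not called lay above 0, and 10 of them had an unadjusted p below 0.05.

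The arrays kept that order within a single range of mean level. Among genes with a mean level from 100 to under 1000 normalised counts, 17 of 17 Pcdhg, 4 of 7 Pcdha and 4 of 19 Pcdhb genes rose. In the same range 46.8% of 1266 genes with a predicted segment rose, against 64.3% at higher and 12.8% at lower mean levels. The median log2 fold change there was 0.91 for Pcdhg, 0.80 for Pcdha and 0.63 for Pcdhb, and the median SEs were 0.21, 0.30 and 0.26. At the median SE of all tested Pcdhb genes a log2 fold change had to reach 0.70 to be called.

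The genes of the Pcdha and Pcdhg arrays may not be independent measurements. Every Pcdha and Pcdhg member shares exon bases with other genes of the same strand, from 38.9% to 59.9% in Pcdha and from 31.5% to 66.8% in Pcdhg, because the annotated genes run into common constant exons. In Pcdhb, 2 of 22 members share any, at most 9.67%. How reads in shared exons were counted is not given in the sources used here, and the part that shared reads have in the likeness of Pcdhg values was not tested. Exons of 12 clustered members also lie under exons of a gene on the other strand, most of all those of Pcdhb12 (63.5%) and Pcdhga10 (55.2%), and reads of such pairs may not be told apart.

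Genes that lie among the arrays or between them and Pcdh1, but encode no protocadherin, did not pass the test. Of 11 such genes with an adjusted p, 0 were called higher or lower in the authors' deposited table (DESeq2), with 1 higher and 1 lower at an unadjusted p below 0.05. Taf7, a subunit of the general transcription factor TFIID that sits between Pcdhb and Pcdhg, was at 0.31 (SE 0.19, adjusted p = 0.348) in that table. Diaph1, which encodes a formin and lies just past Pcdhg, was at 0.16 (SE 0.13, adjusted p = 0.553). Among these 11 only Rell2 encodes a protein with a predicted segment, and it was at 0.31 (SE 0.13, adjusted p = 0.0969) per the authors' deposited table. The rest are noncoding or have no segment, with mean levels down to 11.9 normalised counts. Of all tested genes 11.8% rose and 2.01% fell, and of coding genes with no segment 2.82% and 1.41%. A count of 0 among 11 therefore does not set these genes apart from their kind.

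**Figure D2:**
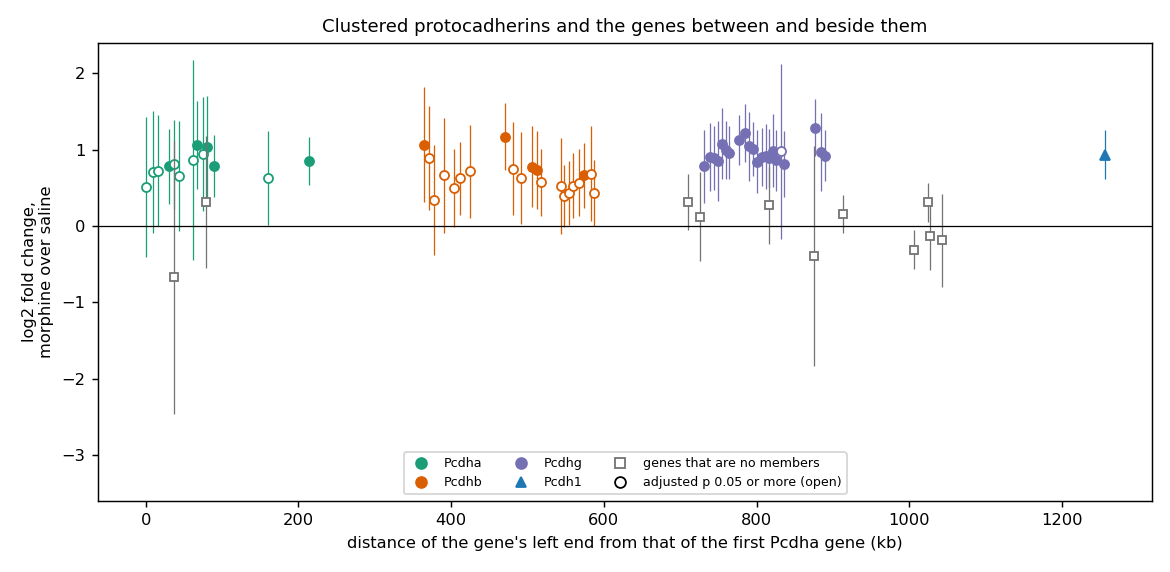
Log2 fold change of morphine over saline (vertical axis, bars are 95% intervals from the authors' SE) against the distance in kb of each gene's left end from that of the first Pcdha gene. Filled symbols have an adjusted p below 0.05: 21 of 22 Pcdhg genes, 5 of 13 Pcdha genes, 5 of 21 Pcdhb genes and Pcdh1, and 0 of the 11 grey squares, which are no protocadherins.

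Of 8 tested genes of the Celsr, Fat and Dachsous group 6 rose, with a median log2 fold change of 0.96. All 3 Celsr genes, seven-pass cadherins that guide axon tracts and planar polarity, rose and kept their calls when measured from the median of their kind of protein. Celsr2 (ENSMUSG00000068740, chromosome 3, 108390851 to 108415552, GRCm38) had the highest level per kilobase of all members, 1493 normalised counts. In the authors' deposited table it rose by 1.09 (SE 0.15, 2.12-fold, adjusted p = 8.38e-11). Celsr3 (chromosome 9, 108826320 to 108852969) rose by 1.10 (SE 0.17, 2.15-fold, adjusted p = 4.31e-09), and the intervals of Celsr2 and Celsr3 nearly coincide, 0.79 to 1.38 and 0.78 to 1.43. Celsr1 rose by 1.99 (SE 0.42, 3.96-fold, adjusted p = 4.87e-05) in that table, from a mean level of 72.7 normalised counts, or 6.60 per kilobase.

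The promoter windows of the pair of Celsr genes that moved by like amounts are shown because RefSeq holds a window for both, 300 bases around the transcription start. They lie at chr9:108825795-108826094 (plus strand) and chr3:108415530-108415829 (minus strand) on GRCm38.p6. The Celsr3 window ends upstream of the gene start given above, 108826320, so the annotations used here place that start differently. Capitals mark GC boxes, the letters GGGCGG or, on the other strand, CCGCCC.
Celsr3: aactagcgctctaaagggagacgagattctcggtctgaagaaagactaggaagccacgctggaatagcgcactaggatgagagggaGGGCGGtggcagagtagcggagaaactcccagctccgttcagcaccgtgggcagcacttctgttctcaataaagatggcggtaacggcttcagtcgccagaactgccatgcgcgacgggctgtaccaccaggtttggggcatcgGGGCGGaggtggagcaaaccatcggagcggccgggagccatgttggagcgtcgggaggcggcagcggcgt
Celsr2: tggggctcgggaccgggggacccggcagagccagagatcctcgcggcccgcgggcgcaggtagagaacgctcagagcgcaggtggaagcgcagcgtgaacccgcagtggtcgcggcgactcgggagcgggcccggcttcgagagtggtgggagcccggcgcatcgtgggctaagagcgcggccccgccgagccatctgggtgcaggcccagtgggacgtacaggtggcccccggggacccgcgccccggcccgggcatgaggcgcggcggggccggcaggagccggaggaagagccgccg
Celsr3 holds 2 GC boxes and Celsr2 none, and 35.7% of all 32851 windows of this length hold at least 1. Neither window holds the cAMP response element TGACGTCA, found in 1.79% of all windows, nor the AP-1 letters TGAGTCA or TGACTCA, found in 5.20%. Of 29 windows searched, which belong to 26 members outside the arrays, 11 hold a GC box and 0 a cAMP response element or AP-1 letters. No window of a clustered protocadherin was searched.

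Fat1 and Dchs1, a large atypical cadherin and a ligand of Fat4, rose by 1.05 (SE 0.16, adjusted p = 7.12e-09) and 0.86 (SE 0.20, adjusted p = 0.000182) per the authors' deposited table. Fat3, which shapes dendrites of retinal neurons, rose by 0.56 (SE 0.12, 1.47-fold, adjusted p = 7.41e-05), just under the median of genes with a predicted segment. Fat4 was at 0.24 (SE 0.25, adjusted p = 0.669). Dchs2 was at -0.01 (SE 0.17, adjusted p = 0.980), with an interval of -0.35 to 0.32, at a mean level of 1260 normalised counts in the authors' deposited table. Dchs2 thus stood apart from Dchs1, whose interval of 0.48 to 1.25 does not meet it, although the difference between them was not tested.

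Of 11 protocadherins outside the arrays 4 rose (36.4%), against 46.3% of coding genes with a predicted segment. Their median log2 fold change was 0.42, under that of genes with a predicted segment. Pcdh1, which lies on chromosome 18 beyond the arrays, was highest at 0.93 (SE 0.16, 1.91-fold, adjusted p = 5.73e-07) per the authors' deposited table. Pcdh8, also known as arcadlin, an activity-regulated protocadherin that draws N-cadherin into cells, rose by 0.76 (SE 0.21, adjusted p = 0.00307). Pcdh20 rose by 0.65 (SE 0.23, adjusted p = 0.0432) and Pcdh10, which promotes synapse elimination and is the class's most counted gene at a mean level of 12559 normalised counts, by 0.59 (SE 0.14, adjusted p = 0.000482).

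The other 7 single protocadherins were not called, and all lay above 0. Pcdh17 at 0.35 (SE 0.13, adjusted p = 0.0519) and Pcdh11x at 0.42 (SE 0.15, adjusted p = 0.0521) lay just outside the threshold in the authors' deposited table. Pcdh9 was at 0.44 (SE 0.17) and Pcdh7 at 0.42 (SE 0.19), so that 1 of 4 genes of the delta1 type rose. Of the 5 delta2 genes 2 rose. Pcdh19, an X-linked gene that works with N-cadherin, was at 0.08 (SE 0.17, adjusted p = 0.881) and Pcdh18 at 0.24 (SE 0.32). Pcdh15, a part of the tip link of hair cells, was at 0.27 (SE 0.21). The interval of Pcdh19 ran to 0.42, under the Pcdhg median of 0.94.

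Of 3 type I classical cadherins 2 rose, while 46.3% of coding genes with a predicted segment did. Cdh2, which encodes N-cadherin of synaptic junctions, rose by 0.78 (SE 0.17, 1.72-fold, adjusted p = 8.99e-05) per the authors' deposited table, and Cdh4, which encodes R-cadherin, by 0.79 (SE 0.19, 1.72-fold, adjusted p = 0.00074). Cdh15, which encodes M-cadherin of muscle, was at 0.27 (SE 0.28, adjusted p = 0.679) with a mean level of 155 normalised counts. Cdh13, which encodes T-cadherin, held in the membrane by a lipid anchor and without a cytoplasmic tail, rose by 0.37 (SE 0.13, 1.30-fold, adjusted p = 0.0245), the smallest called value of the family in the authors' deposited table.

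Of 13 type II classical cadherins, which mark subsets of neurons and their target layers, 7 rose (53.8%), with a median of 0.66. That share lies near the 46.3% of coding genes with a predicted segment. Cdh22 rose by 0.97 (SE 0.14, 1.96-fold, adjusted p = 9.62e-10) per the authors' deposited table. Cdh20 (0.82, SE 0.25), Cdh10 (0.73, SE 0.20), Cdh8 (0.66, SE 0.16), Cdh11 (0.60, SE 0.17) and Cdh9 (0.57, SE 0.17) rose by smaller amounts. Cdh8 was also the most counted gene of the class, with a mean level of 4907 normalised counts or 634 per kilobase. Cdh24 (0.76, SE 0.28, adjusted p = 0.0505) lay just outside the threshold in that table.

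The remaining type II genes were not called. Cdh6 was at 0.44 (SE 0.19), Cdh18 at 0.41 (SE 0.18), Cdh12 at 0.32 (SE 0.52) and Cdh7 at 0.14 (SE 0.15, adjusted p = 0.705) per the authors' deposited table. The SE of Cdh12 lay far above the class median of 0.19, at a mean level of 1283 normalised counts, which is the median of the class. The interval of Cdh7, -0.15 to 0.43, does not reach the 0.58 that was the median of genes with a predicted segment.

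Cdh19 and Cdh5, a glial and an endothelial cadherin, had low mean levels. Cdh19, known from glia of the neural crest, rose by 1.76 (SE 0.50, 3.39-fold, adjusted p = 0.00425) at a mean level of 52.7 normalised counts in the authors' deposited table. Cdh5, which encodes VE-cadherin of endothelium, was at 1.09 (SE 0.86, adjusted p = 0.537) at a mean of 14.6. With Celsr1, these were the only 3 members outside the arrays with a mean under 100. Markers of other cell types rose too in the authors' deposited table: 8 of 10 oligodendrocyte (median 1.09), 7 of 8 precursor (0.97), 9 of 10 astrocyte (1.52), 7 of 7 microglial (2.32), 4 of 6 choroid plexus (2.18), 3 of 9 endothelial and pericyte (1.18), 2 of 5 meningeal (1.30) and 4 of 7 thalamic and cortical (0.70) markers. For comparison, 11.8% of all tested genes rose, 46.3% of coding genes with a predicted segment and 2.82% of those without. Of striatal projection neuron markers 5 of 12 rose (0.30). None of these lists had a called decrease. Of 9 listed microglial markers 7 had a row, of 7 choroid plexus markers 6 and of 7 meningeal markers 5. A predicted segment was found in 5 of 10 oligodendrocyte, 5 of 8 precursor, 7 of 10 astrocyte and 6 of 7 microglial markers. It was found in 3 of 6 choroid plexus, 8 of 9 vessel, 4 of 5 meningeal and 2 of 7 thalamic and cortical markers. Among projection neuron markers 7 of 12 had a segment. The part of these lists in the members' values was not tested.

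Called log2 fold changes from each marker list follow. For choroid plexus the authors' deposited table gave Ttr, the transthyretin gene, 4.68 (SE 0.20), Folr1 3.16, Prlr 2.44 and Kl 1.93. Glial values in that table were Cx3cr1 at 2.88, C1qb at 2.56 and Ctss at 1.54 in microglia, and Mlc1 at 2.55, Slc7a10 at 2.34, Aldoc at 0.88 and Slc1a2 at 0.66 in astrocytes. The authors' deposited table gave Cldn11 1.97, Mag 1.86, Cnp 0.73 and Mbp 0.65 for oligodendrocytes, and Cspg4 1.87, Gpr17 1.53, Tnr 0.55 and Lhfpl3 0.52 for their precursors. Called vessel markers in that table were Pdgfrb at 1.55, Abcc9 at 1.32 and Vtn at 1.23. The endothelial markers Pecam1 (0.36), Cldn5 (0.55), Kdr (1.18), Flt1 (1.17) and Slco1a4 (1.36) were not called, nor was Rgs5 (0.12). Called meningeal markers in the authors' deposited table were Igf2 at 2.42 and Ptgds at 2.05. Called markers of excitatory neurons there were Tcf7l2 at 2.42, Lef1 at 1.68, Slc17a7 at 0.81 and Slc17a6 at 0.70. Values that were not called reached -0.30 in the list of excitatory neurons. For projection neurons that table gave Tac1 1.14, Pdyn 1.05 and Drd1 0.70 among called markers. The 5 markers of that list below 0, all not called, were Foxp1 at -0.23, Meis2 at -0.20, Ppp1r1b at -0.12, Rgs9 at -0.08 and Bcl11b at -0.08 in the authors' deposited table. None of these has a predicted segment, while every called marker of the list does. Oprm1 itself was at 0.29 (SE 0.18, adjusted p = 0.350).

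**Figure D3:**
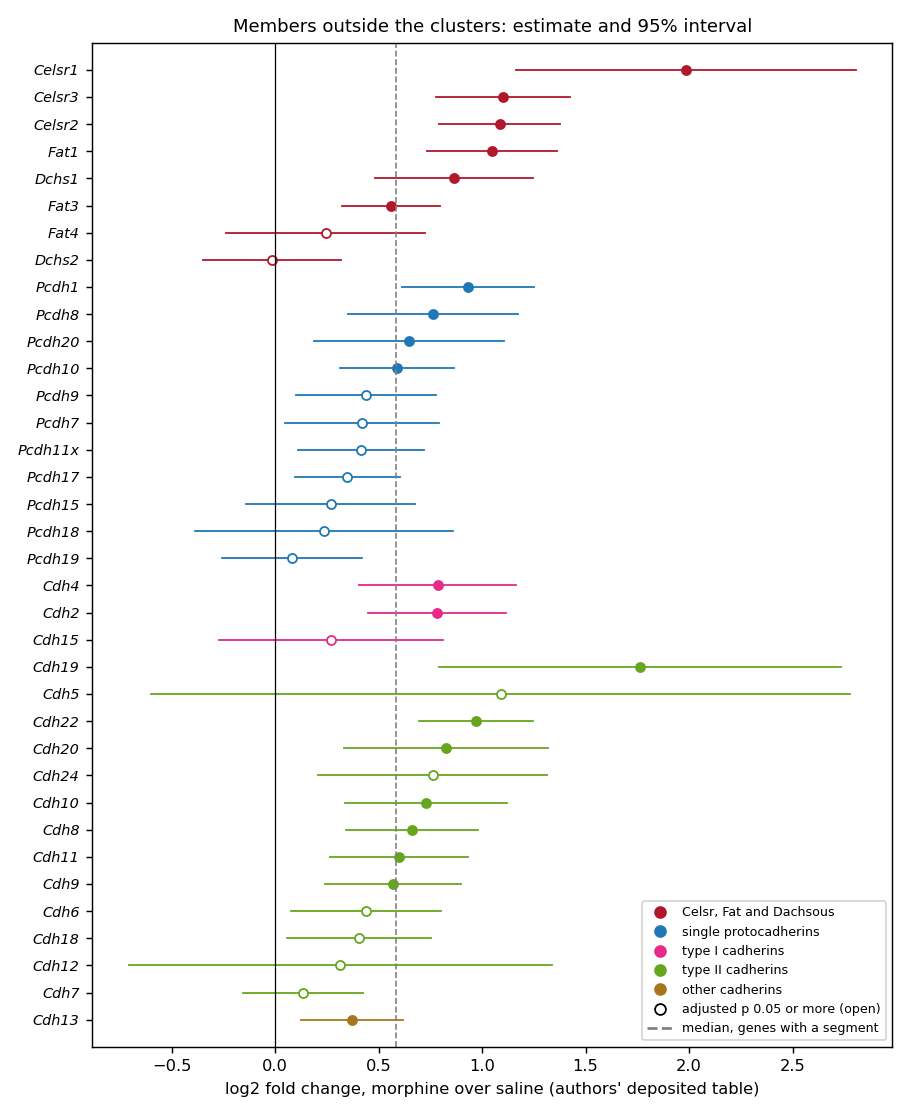
Log2 fold change of morphine over saline (horizontal axis) with its 95% interval from the authors' SE for the 36 members outside the arrays, by class and from high to low within a class. Filled points have an adjusted p below 0.05 (20 of 36); the dashed line is the median of genes with a predicted segment, 0.58, and Dchs2 is the only point below 0.

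Precision followed the mean level. The smallest ratio of an estimate to its SE among called genes was 2.702. Across the 92 members the SE fell with the mean level (Spearman's rho -0.92), while the log2 fold change had little relation to it (rho -0.14), as a description of genes measured in the same libraries. All 5 clustered genes with a mean of 1000 normalised counts or more rose, 25 of 43 with a mean from 100 to under 1000 did, and 1 of 8 with a lower mean did. The other members showed no such order: 12 of 22 with a mean of 1000 or more rose, 6 of 11 with a mean from 100 to under 1000, and 2 of 3 with a lower mean. Of the 41 members not called, 40 lay above 0, 20 had an unadjusted p below 0.05, and for 38 the interval reached 0.5, so a missed threshold does not show that they were alike in both groups. For 4 of them the adjusted p lay between 0.05 and 0.053: Pcdha6, Cdh24, Pcdh17 and Pcdh11x.

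**Figure D4:**
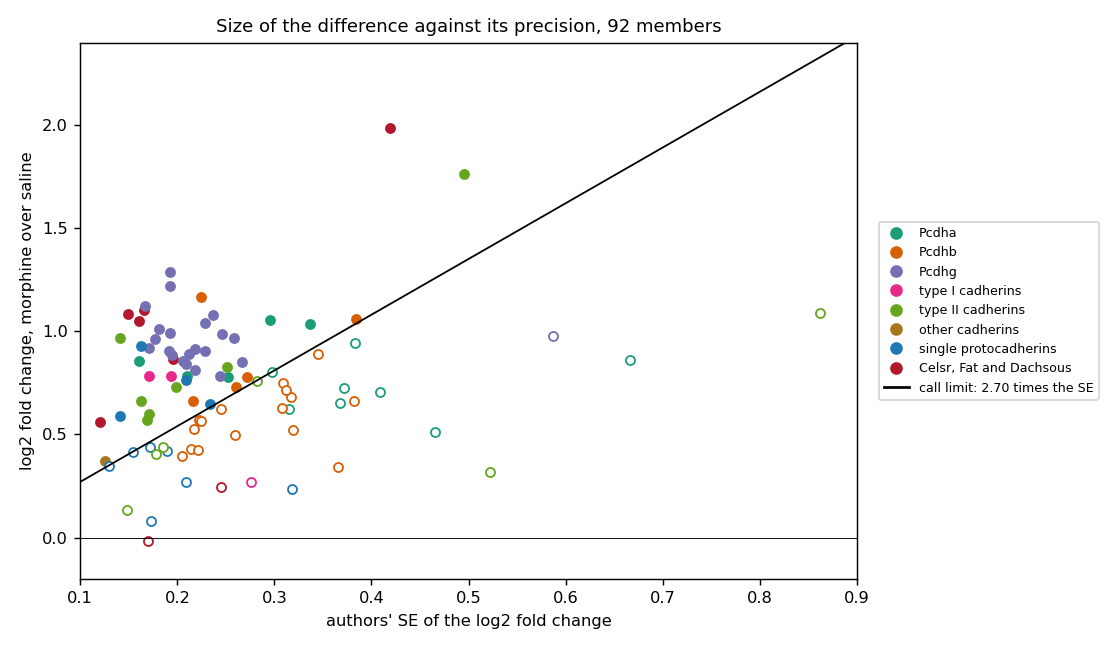
Log2 fold change of morphine over saline (vertical axis) against its SE in the authors' deposited table (horizontal axis) for the 92 members, coloured by class; the line marks 2.70 times the SE, the smallest ratio of a called gene, and filled points have an adjusted p below 0.05. Open Pcdhb and Pcdha points lie under the line at SEs above 0.2, at values similar to those of called genes with smaller SEs.

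Protein size showed little relation to the values of the other members. Lengths ran from 714 residues in Cdh13 to 4981 in Fat4, and among the 36 other members Spearman's rho between length and log2 fold change was -0.01. Among the 56 clustered members rho was 0.41, and there the lengths follow the arrays, with Pcdhb proteins of 772 to 829 residues, Pcdha of 934 to 1006 and Pcdhg of 912 to 944. These are correlations across genes and carry no test.

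Of the catenin, p120 family and WAVE complex genes listed here, none passed the test. Among all coding genes with no predicted segment 2.82% rose and 1.41% fell, so 0 calls in lists of this size lie near that share. Of 13 catenin and p120 family genes, which tie cadherin tails to actin, 0 rose or fell (DESeq2), with 0 at an unadjusted p below 0.05 and a median log2 fold change of -0.03. In the authors' deposited table the 2 with the smallest p were Ctnnal1 at 0.45 (SE 0.26) and the vinculin gene Vcl at 0.19 (SE 0.16). Of 9 genes of the WAVE complex, an actin regulator recruited by delta2 protocadherins, 0 passed (DESeq2), with 2 lower at an unadjusted p below 0.05, Cyfip2 at -0.30 (SE 0.12, adjusted p = 0.0638) and Nckap1 at -0.25 (SE 0.12) in the authors' deposited table. The median of that list was -0.18.

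Regulators of the arrays did not pass either. Of 15 tested genes for CTCF, cohesin and silencing factors, which shape promoter choice in the clusters, 0 passed (DESeq2), 0 had an unadjusted p below 0.05 and the median was -0.10. Smc1a at -0.25 (SE 0.13) and Smc3 at -0.23 (SE 0.13), subunits of cohesin, had the smallest p of the list in the authors' deposited table. None of these 15 genes and none of the 13 catenin genes has a predicted segment, against 1 of the 9 WAVE genes. With 2.82% higher and 1.41% lower among all coding genes with no segment, 0 of 15 does not set the regulators apart.

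Genes of membrane proteins that cut or resemble cadherins rose in part. Of all tested genes 11.8% rose, of coding genes with a predicted segment 46.3% (median 0.58), and of those without 2.82%. Of 8 genes of ADAM proteases and gamma-secretase, which shed and cleave cadherins, 6 rose, with a median of 0.65, and 7 of the 8 have a predicted segment. In the authors' deposited table these included the gamma-secretase genes Psen2 at 1.04 (SE 0.28), Aph1a at 0.95 (SE 0.21) and Aph1b at 0.62 (SE 0.16). Of 8 tested cadherin superfamily genes outside the naming rule 4 rose: Cdhr1, at 2.29-fold, and on the log2 scale the receptor kinase gene Ret at 1.07 (SE 0.37) and the calsyntenin genes Clstn3 at 1.01 (SE 0.17) and Clstn1 at 0.95 (SE 0.18) in that table. Of 12 planar polarity partners 2 rose, Ptk7 at 0.91 (SE 0.22) and Fjx1, the mouse relative of Drosophila four-jointed, a Golgi kinase of Fat and Dachsous, at 0.71 (SE 0.18), with a median of 0.16. All 8 tested superfamily genes and 5 of the 12 polarity partners have a predicted segment. Any difference of these lists from the shares of their kind was not tested.

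**Figure D5:**
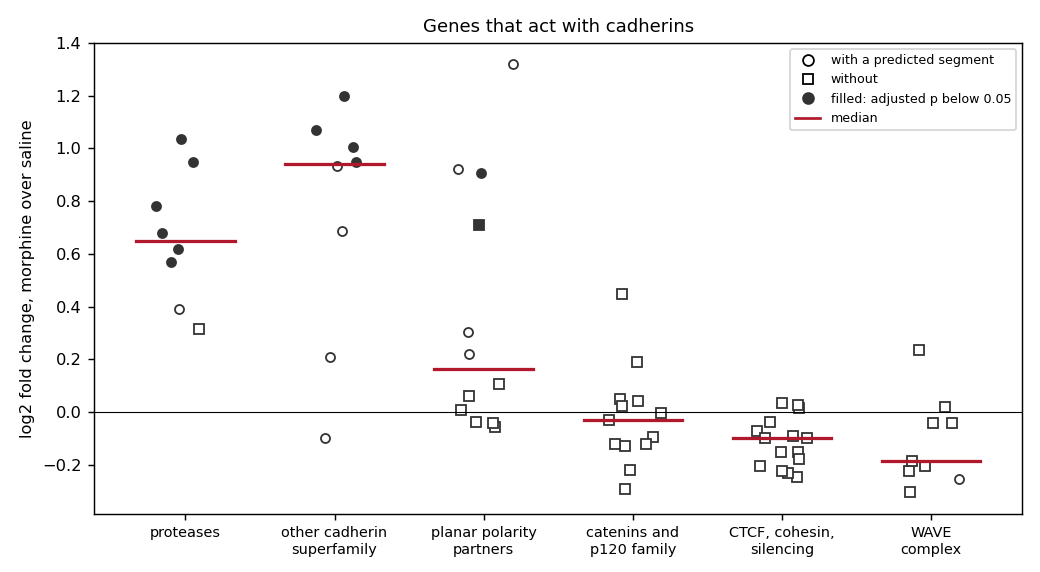
Log2 fold change of morphine over saline (vertical axis) in the authors' deposited table for the tested genes of 6 lists that act with or resemble cadherins; circles have a predicted signal or membrane segment, squares have none, filled symbols have an adjusted p below 0.05 and red bars are medians. The 8 protease genes have a median of 0.65 and the 13 catenin genes one of -0.03.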

How the data were processed

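The deposited data are the authors' comparison of morphine with saline, groups with 3 labelled libraries each, as a sheet of 18732 genes and 3 sheets of its called genes. The submitters' processing notes list the builds mm10 and GRCm38, DESeq2 1.20.0 and STAR 2.6.1d. The counter, annotation, model, filters and fitted libraries were not given in the sources used here, and the depth per library is unknown. The authors' deposited mean level is a signal, counts divided by size factors and averaged. The authors' deposited log2 fold change and SE are model estimates on the log2 scale, and their ratio is the deposited score, a Wald statistic. Two-sided Wald p-values are the authors' deposited ones, with Benjamini-Hochberg adjusted p-values for 17279 genes. The adjusted p recomputed from them differed by at most 2.11e-15.

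Symbols, positions and exon lengths came from GENCODE M21 (GRCm38) by Ensembl identifier, promoters from RefSeq (GRCm38.p6). A predicted segment is a 19-residue window with mean Kyte-Doolittle hydropathy of at least 1.9, or a 12-residue window of at least 2.2 within the first 40 residues, in the longest coding sequence. Genes whose only segment begins in the last 50 residues, and families of mitochondrial proteins, were in neither class. Intervals are normal, at 95%. Members, lists, alternatives and segment classes were chosen with earlier results of these data known, and the Celsr promoters after their values were seen. All called members were named, with the highest mean level and the highest and lowest log2 fold change of each class, and of each list the 2 highest and 2 lowest called genes, or the 2 with the smallest p, apart from some that are not reported here. The adjustment and centring were tested on simulated data. Software was matplotlib 3.10.9, Biopython 1.88, scipy 1.17.1, pandas 2.3.3 and numpy 2.4.6 under Python 3.11.15.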

Additional observations from a re-analysis of the deposited data

How the results depend on the processing

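The count of 51 members that rose ranged from 40 to 63 with adjusted p thresholds of 0.01 and 0.1, adjustment over every gene with a p or over genes with a mean of at least 100, a minimum absolute log2 fold change of 0.5, and centring on the median of all tested genes. Centring within the kind of protein left 6 members higher (3 clustered and 3 others) and 2 lower. Among members called before or after that centring, Fat3 (-0.0218), Cdh13 (-0.21), Cdh9 (-0.013) and Cdh7 (-0.45) changed sign. Members called in neither setting changed sign too where their value lay between 0 and 0.58, the median of their kind. A further 42 calls were lost and Dchs2 passed as lower. With a t distribution of 4 degrees of freedom 0 members and 0 of 17279 genes passed, so that setting says nothing about the members. Chosen after seeing the data, leaving out genes with shared exon bases reduced the genes tested: 17 of 42 members free of overlap on either strand rose, 13 of 24 others, 20 of 44 clustered genes free of overlap on the opposite strand, and 5 of 19 free of it on the same strand, all of them Pcdhb. The medians of all, clustered and other members ranged over 0.71 to 0.78, 0.81 to 0.85 and 0.57 to 0.61, and their difference over 0.22 to 0.28, with Pcdhb1 included, with a mean of at least 100, centred on all genes, or as means weighted by the SE. No paired analysis was possible because values per library were not analysed here, and leaving out replicates could not be run for the same reason. Depth per library is unknown, and the SE limits genes with a low mean.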
